A study of Mus musculus with 25 samples.

Results

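The nuclear genes of oxidative phosphorylation were followed through 25 RNA-seq libraries of mouse two-cell embryos in 11 groups. Members were the protein-coding genes whose symbols begin with Nduf, Uqcr, Cox4 to Cox8 or Atp5, with Sdha to Sdhd, Cyc1 and Cycs, that lie outside the mitochondrial genome and average at least 1 read over the libraries. The search matched 96 gene rows and 93 of them were members, out of 26850 gene rows that reached the same read level. Ndufa4l2, Cox8b and a second row named Atp5o fell below that level. Roles were assigned by symbol and not checked protein by protein, so Ndufa4 counts with complex I. Of the 93 members, 30 count as accessory subunits of complex I, 7 as core subunits and 8 as assembly factors. Another 4 count with complex II, 9 with complex III, 17 with complex IV, 17 with complex V and 1 as cytochrome c. The 90 autosomal members were tested, and the X-linked Ndufa1, Ndufb11 and Cox7b are given separately.

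Every library came from a pool of 5 to 10 late two-cell embryos collected 28 to 29 h after insemination or activation. In vitro fertilised (IVF) embryos combined C57BL/6N oocytes with DBA2 sperm (4 libraries). Somatic cell nuclear transfer (SCNT) placed BDF1 cumulus cell nuclei into enucleated BDF1 oocytes, so the SCNT embryos carry a genome of the same cross as the IVF embryos, while the oocytes came from BDF1 females in place of C57BL/6N. The donor cells were female, so SCNT embryos are female, while IVF embryos are of both sexes. One set of SCNT embryos was activated in cytochalasin B, without mRNA (2 libraries) or with 10 pL of Kdm3a or Kdm4d mRNA at 1500 ng/µL (2 each). Both mRNAs encode demethylases of histone H3 lysine 9. The other set was made in latrunculin A, without drug (2), with 25 nM of the histone deacetylase inhibitor trichostatin A (TSA) for 8 h (2), with 1 µM of a G9a inhibitor for 24 h (RK-701 in 3 libraries, A366 in 2), or with TSA plus one of the G9a inhibitors RK-701, A366 and UNC0638 (2 for each combination). G9a is a methyltransferase of histone H3 lysine 9. Each library is a bulk sample, in which fewer cells of a type and less RNA per cell cannot be told apart.

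Oxidative phosphorylation passes electrons from NADH and succinate through complexes I to IV to oxygen and uses the resulting proton gradient to make ATP in complex V. A few subunits come from the mitochondrial genome, while most are encoded in the nucleus and imported. The preimplantation embryo relies on mitochondria inherited from the oocyte, and the nuclear mRNAs of a two-cell embryo are a mixture of stored maternal RNA and new transcripts.

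Promoter sequences were available for 76 of the 93 members. Those of 3 members are shown. Atp5k and Cox6a1 are among the members with the smallest adjusted p with RK-701 alone, and Cycs is the textbook target of nuclear respiratory factor 1 (NRF1). The 3 all hold the NRF1 core searched for below, as 12 of 81 member windows do, so they do not stand for the members. The promoters of Ndufs6, Sdhb, Cox5a and Cox6b2, which also changed, hold no NRF1 core. The stretches run from base -170 to base -1 before the RefSeq start, on the minus strand of GRCm38.p6, with matches to the searched letters in capitals.

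Atp5k, chr5:108434400-108434569: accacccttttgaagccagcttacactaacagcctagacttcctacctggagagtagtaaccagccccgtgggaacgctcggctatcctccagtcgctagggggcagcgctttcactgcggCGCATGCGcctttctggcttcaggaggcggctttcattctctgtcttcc
Cox6a1, chr5:115348959-115349128: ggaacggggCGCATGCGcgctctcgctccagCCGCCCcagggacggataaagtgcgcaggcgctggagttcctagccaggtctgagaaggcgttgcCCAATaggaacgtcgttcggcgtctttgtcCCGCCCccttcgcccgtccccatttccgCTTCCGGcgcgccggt
Cycs, chr6:50566570-50566739: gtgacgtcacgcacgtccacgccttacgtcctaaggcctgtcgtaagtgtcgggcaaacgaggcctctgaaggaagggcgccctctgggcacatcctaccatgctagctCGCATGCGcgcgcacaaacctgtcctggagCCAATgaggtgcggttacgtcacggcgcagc

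The letters were searched on both strands in windows of 300 bases, 250 before and 50 after each start. The NRF1 core CGCATGCG lay in 12 of 81 member windows (14.8%) and in 1.87% of all 32851 windows. The ETS core CCGGAAG lay in 22.2% of member windows against 8.86% of all, and the YY1 core AAGATGGC in 13.6% against 2.75%. The CCAAT box (44.4% against 37.4%), the GC box GGGCGG (45.7% against 35.7%) and the TATA box TATAAA (8.64% against 13.6%) lay closer to the share of all windows. Matches overlapped in 1 member window, between an ETS core and a GC box. These are letter matches and not measured binding. No sequence is shown for Ndufa2, Ndufb9, Ndufaf6, Ndufs1, Sdhc, Cyc1, Uqcrb, Uqcrc2, Uqcrq, Cox4i1, Cox4i2, Cox6a2, Cox6c, Cox8c, Atp5a1 and Atp5mpl.

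Libraries held 6662727 to 21188688 reads on genes. The 9 oocyte markers were all present, with summed levels of 934.5 to 2992.2 TPM (counts per length, scaled to a fixed total over autosomal genes), and 7 two-cell markers summed to 251 to 1474 TPM. Cumulus markers summed to 43.1 to 123 TPM, with 5 of 15 above 1 TPM on average, and the 6 muscle markers to at most 7.92 TPM. The 6 testis germ cell markers summed to 43.1 to 118 TPM with Tnp2 at 0 reads in every library. Oocyte markers were highest in RK-701 embryos (2367 to 2992 TPM) and lowest in embryos with TSA and RK-701 (934.5 to 1096), against 1818 to 1953 in the latrunculin A control, and their part in the results was not tested.

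**Figure D1:**
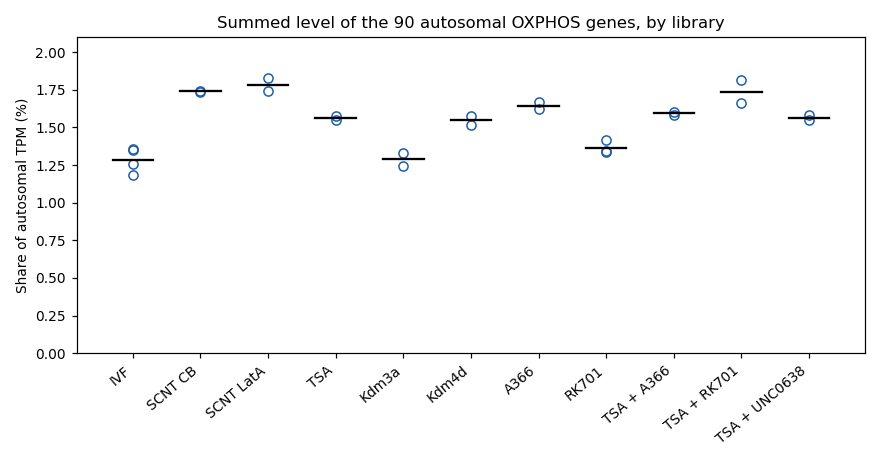
Summed TPM of the 90 autosomal members as a percent of the autosomal total, with a circle for each library and a line at each group mean. IVF libraries lie between 1.19% and 1.36%, the untreated SCNT libraries between 1.74% and 1.83%, and RK-701 libraries between 1.34% and 1.42%.

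As a sum, the 90 autosomal members took 1.19% to 1.36% of the autosomal TPM in IVF embryos and 1.74% to 1.83% in the untreated SCNT libraries, so the groups did not overlap. Complex V took 0.31% ± 0.016 (SD, n = 4) in IVF embryos and 0.554% ± 0.0101 (SD, n = 2) in the cytochalasin B control. Complex III took 0.13% ± 0.00424 and 0.214% ± 0.00934 in the same groups. Complex IV took 0.485% ± 0.0623 in IVF embryos, 0.444% ± 0.00447 in that control and 0.569% ± 0.00214 (SD, n = 2) in the latrunculin A control, and was lowest with Kdm3a at 0.30% ± 0.0245 (SD, n = 2). These sums are weighted towards the abundant members and are given as a description.

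Levels per length differed widely between members. Cox8a, a small subunit of complex IV, had the highest mean over the 25 libraries (1206 TPM, 306 to 1767), followed by Cox7a2 at 745 TPM (588 to 981) and Uqcr10 at 717 TPM. The ranges of these 3 overlap. Sdhd was the most abundant of the complex II genes at 115 TPM (31.3 to 205), ahead of Sdhb (68.1, 15.5 to 116), Sdha (31.5) and Sdhc (17.5), and the ranges of Sdhd and Sdhb overlap.

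Isoforms of one subunit were unequal. Cox4i1 lay at 706 TPM (476 to 960) and Cox4i2, the isoform known for induction by low oxygen, at 24.7 TPM (4.97 to 43.3). Cox6a1 lay at 485 TPM and the muscle isoform Cox6a2 at 3.94 TPM. The testis isoform Cox6b2 and the general isoform Cox6b1 lay at 453 TPM (231 to 844) and 438 TPM (304 to 609), with overlapping ranges. Cox7a2 exceeded Cox7a2l (87.9 TPM) and the muscle isoform Cox7a1 (23.1 TPM), and Cox7b at 358 TPM exceeded Cox7b2 at 3.78 TPM. Cox8c, an isoform of testis, lay at 3.31 TPM. Among the genes of the membrane ring of ATP synthase, Atp5g1 lay at 310 TPM, Atp5g3 at 79.5 TPM and Atp5g2 at 6.69 TPM.

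The first question was how untreated SCNT embryos differ from fertilised ones. Oocyte strain and embryo sex differ between them too, and cannot be told apart from nuclear transfer in any comparison with IVF. Against IVF, the cytochalasin B control had 31 members higher and 10 lower of 90 at an adjusted p under 0.05 (edgeR quasi-likelihood test), of which 26 exceeded a fold of 2. The background over 25794 autosomal genes was 10.8% higher and 10.5% lower. Here and below, that background includes genes with few reads, and over well-covered genes the share called can be higher. The latrunculin A control had 27 members higher and 10 lower, against 11.5% and 10% of all genes. The median log2 fold change of the members was 0.20 and 0.18, against 0.01 and 0.04 over all genes tested. Both comparisons share the IVF libraries. Summed oocyte markers were 1212 to 1448 TPM in IVF, 1426 to 1932 in the cytochalasin B control and 1818 to 1953 in the latrunculin A control. Two-cell markers summed to 1099 to 1306, 764 to 828 and 412 to 644 TPM in the same order, and the part of either list in the result was not tested.

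Accessory subunits of complex I made up most of the higher members, with 16 of 28 higher and 2 lower in the cytochalasin B control and 14 and 2 in the latrunculin A control. Ndufa4, counted there by its symbol, is among the lower ones in both controls. None of the 7 core subunits was higher in either control. Complex II had 2 of 4 higher in both. Complex IV had 2 of 16 higher and 4 lower in the cytochalasin B control and 1 and 5 in the latrunculin A control, where Cox7b2 and Cox8c, at 0 reads in that control, are among the 5. Complex V had 6 of 17 higher and 1 lower, then 5 and 0. The 8 assembly factors had 2 higher and 1 lower, then 3 and 1.

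Atp5k, subunit e of ATP synthase, read 18.9, 25.8, 30.5 and 23.3 normalised counts (CPM after TMM scaling) in IVF libraries. It read 136 and 136 in the cytochalasin B control and 106 and 103 in the latrunculin A control. The SCNT controls lay above every IVF library, with log2 fold changes of 2.46 ± 0.16 (SE, edgeR adjusted p = 3.28e-11) and 2.08 ± 0.16 (adjusted p = 5.7e-10). The gene lies at chr5:108433244-108434448 on the minus strand (mm10), and the difference exceeded the spread between libraries.

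Ndufs6, an accessory subunit of complex I (chr13:73319838-73328542, minus strand, mm10), read 3.75, 3.91, 5.07 and 4.05 in IVF libraries. It read 36.7 and 30.8 in the cytochalasin B control and 29.1 and 21.6 in the latrunculin A control. No SCNT library overlapped with IVF, and the log2 fold changes were 3.00 ± 0.27 (edgeR adjusted p = 9.08e-09) and 2.59 ± 0.27 (adjusted p = 1.08e-07). Sdhb, the iron-sulphur subunit of succinate dehydrogenase, read 20.3, 16.2, 13.1 and 16.2 in IVF, 54.0 and 86.6 in cytochalasin B and 76.2 and 41.6 in latrunculin A embryos. The controls were spread but stayed above IVF, with log2 fold changes of 2.11 ± 0.21 (edgeR adjusted p = 3.47e-08) and 1.85 ± 0.21 (adjusted p = 3.26e-07).

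Atp5e, the epsilon subunit of ATP synthase, rose by 1.43 and 1.29 on the log2 scale in the cytochalasin B and latrunculin A controls. Ndufaf4, an assembly factor of complex I, rose by 1.31 and 1.20 in the same order. Uqcr11, a small subunit of complex III, rose by 1.41 and 1.69. It read 11 to 15.7 in IVF libraries and 39 and 49 in the latrunculin A control. Sdhd, a membrane anchor of complex II, rose by 1.14 and 0.90.

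Cox6b2, the testis isoform of a complex IV subunit, went down. It read 127, 160, 190 and 176 in IVF and 70.1, 75, 99 and 59.2 in the 4 SCNT control libraries, with no overlap. Its log2 fold changes were -1.17 ± 0.21 and -1.05 ± 0.21 (edgeR adjusted p = 0.000216 and 0.000675).

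Cox6c fell by 1.02 on the log2 scale in both controls, and Ndufb6 by 0.75 and 0.83. Ndufa4 fell by 0.58 and 0.83, and Cox7a2 by 0.45 and 0.58. Ndufaf8, an assembly factor, fell by 1.17 in the cytochalasin B control. For Ndufb6, 39% of exon bases also lie in another gene, and pairs over more than 1 feature were not counted.

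Cox7b2 and Cox8c, low isoforms, were read in IVF but at 0 in both latrunculin A libraries. Cox7b2 had 15, 27, 17 and 25 reads in IVF, and the IVF level was at least 15.6-fold higher, taking 3 reads over the control group as the floor. Cox8c had 9, 67, 33 and 30 reads in IVF, at least 25.9-fold higher than in that control. In the cytochalasin B control Cox7b2 had 0 and 6 reads and Cox8c 3 and 5.

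Cox8a, Cox5a, Cox5b and Cox6a1, subunits of complex IV, were all lowest in the same fertilised library. In this second IVF library Cox8a read 156 against 350 to 369 in the others, Cox5a 2.48 against 8.25 to 12.4, Cox5b 31.9 against 68.9 to 79.8, and Cox6a1 51.9 against 83.1 to 118. Cox8a was lower in the cytochalasin B control by 0.82 on the log2 scale (edgeR adjusted p = 0.025), and by 1.04 without that library. It did not pass in the latrunculin A control (0.04, adjusted p = 0.932).

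**Figure D2:**
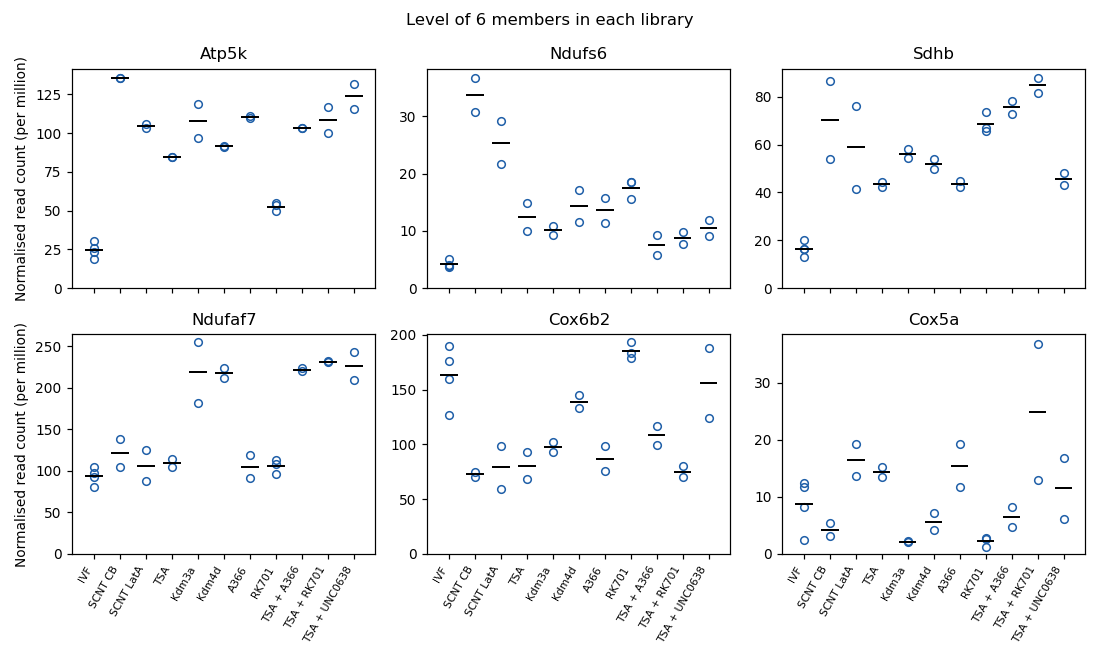
Normalised read counts of 6 members, with a circle for each library and a line at each group mean, on linear axes from 0. Atp5k, Ndufs6 and Sdhb are lowest in the IVF libraries, Ndufaf7 lies between 209 and 243 in the co-treated libraries, and Cox5a lies between 1.27 and 2.80 in the RK-701 libraries.

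The SCNT controls made with either inhibitor were compared next. No member passed between the latrunculin A and cytochalasin B controls (edgeR, 0 of 90, with 17 at an unadjusted p under 0.05 and 0 by DESeq2), and the background was 0.00388% higher and 0.00775% lower. The 95% interval of the log2 difference was -0.76 to 0.01 for Atp5k and -1.05 to 0.23 for Ndufs6, so differences of that size remain within the error. Other intervals left out 0. Among those above it were Cox5a (0.73 to 3.17), Cox8a (0.26 to 1.47), Cox6a1 (0.16 to 1.22) and Cox5b (0.02 to 1.39). Ndufab1 (0.42 to 1.70) and Atp5d (0.20 to 2.15), outside complex IV, lay above it too. Those of Ndufs1 (-1.29 to -0.27) and Uqcrc2 (-1.55 to -0.23) lay below. Of the 90 members, 31 had a difference above 0.

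The next question was what demethylase mRNA did. With Kdm3a, 2 members were higher and 4 lower than in the cytochalasin B control (background 4.21% and 1.94%, median of the members -0.01). With Kdm4d, 5 were higher and 2 lower (background 3.88% and 1.27%, median 0.20). The counts of Kdm4d fell to 0 when either Kdm4d library or the first cytochalasin B library was left out, and that of Kdm3a fell to 3 without the latter. With the gene length trend removed, Kdm3a had 1 higher and 10 lower and Kdm4d 4 and 4, without a share over all genes for that setting. The groups share the control.

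Ndufs6 went down with both mRNAs, from 36.7 and 30.8 to 10.8 and 9.32 with Kdm3a and 11.5 and 17.2 with Kdm4d. The treated libraries lay below both controls, with log2 fold changes of -1.74 ± 0.32 (edgeR adjusted p = 0.0015) and -1.23 ± 0.32 (adjusted p = 0.0222). Atp5e followed, from 95.5 and 80.1 to 30.8 and 41.5 with Kdm3a and 59.5 and 50.4 with Kdm4d, which are changes of -1.28 ± 0.20 and -0.68 ± 0.20 (edgeR adjusted p = 0.000336 and 0.0481).

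Ndufaf7, a methyltransferase needed for complex I assembly, went up. It read 105 and 138 in the control, 181 and 256 with Kdm3a and 224 and 212 with Kdm4d. Its log2 fold changes were 0.85 ± 0.20 and 0.84 ± 0.20 (edgeR adjusted p = 0.0118 and 0.0153). Ndufaf1 (1.41), Cox6b2 (0.94) and Cox7a2l (0.87) also rose with Kdm4d. With Kdm3a, Cox4i2 fell by 1.54 and Cox5b by 1.16 on the log2 scale. The difference between the mRNAs was not tested.

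Against IVF, Kdm3a embryos had 31 members higher and 16 lower (background 10.4% and 8.8%). Kdm4d embryos had 40 higher and 1 lower, Cox8c (background 8.23% and 6.21%). DESeq2 called 39 higher and 8 lower there, and its share over all genes is not given. Ndufs6 remained above IVF by 1.26 and 1.77, and Atp5k by 2.12 and 1.89.

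Drugs given alone moved the members unequally. TSA alone called no member against the latrunculin A control (edgeR, 0 of 90, with 10 at an unadjusted p under 0.05 and 4 lower by DESeq2), where 0.213% of all genes were higher and 0.159% lower. A366 alone called 0 (7 unadjusted, 0 by DESeq2), with a background of 0.093% and 0.0388%. Without the second latrunculin A library these counts were 7 and 2. Ndufs6 differed by -1.04 with TSA (95% interval -1.69 to -0.38), which did not pass after adjustment.

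RK-701 alone had 18 members lower and 1 higher, against 2.8% and 2.68% of all genes, with a median of -0.29 against -0.01. Among protein-coding genes averaging at least 50 reads, 5.92% were lower and 5.44% higher. The lower members were spread over complex I accessory subunits (4 of 28), complex III (3 of 9), complex IV (5 of 16) and complex V (5 of 17), with 1 of 8 assembly factors, and none of the core subunits or complex II. When only the compared libraries entered the fit, 1 was higher and 2 lower, and without the second latrunculin A library or the third RK-701 library 9 and 11 members passed in total. The summed oocyte markers were 2367 to 2992 TPM in these embryos against 1818 to 1953 in the control, and their part in the result was not tested.

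Cox5a, a nuclear subunit of complex IV, read 13.6 and 19.3 in the control and 2.55, 1.27 and 2.80 with RK-701. The groups did not overlap, at a log2 fold change of -2.88 ± 0.54 (edgeR adjusted p = 0.00219). For Cox5a, 41.7% of exon bases also lie in another gene, and it read 3.10 and 5.34 in the cytochalasin B control. Cox6a1 went from 116 and 130 to 60, 46.6 and 40.5, which is -1.32 ± 0.23 (edgeR adjusted p = 0.00123), and -0.70 (adjusted p = 0.109) with the GC content trend removed.

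Atp5k read 49.5, 54.9 and 53.5 with RK-701 against 106 and 103, a log2 fold change of -0.99 ± 0.17 (edgeR adjusted p = 0.00106). Atp5e fell by 0.91 and Atp5j, a stalk subunit of ATP synthase, by 0.90, from 107 and 76.2 to 41.6, 55.8 and 50.2. Cox4i1 fell by 0.70. The exception was Cox6b2, which went from 99.0 and 59.2 to 194, 179 and 184, a log2 fold change of 1.23 ± 0.22 (edgeR adjusted p = 0.00174) and close to the 127 to 190 of the IVF libraries.

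Of the 15 lower members with a promoter window, 4 held an NRF1 core and 4 an ETS core. Of 57 members that did not pass, 8 and 14 did.

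Against IVF the alone-treated groups stayed apart. TSA embryos had 25 members higher and 10 lower (background 11.5% and 10.2%), A366 embryos 21 and 11 (11.7% and 10.4%), and RK-701 embryos 18 and 23 (9.77% and 9.6%). RK-701 was the single group of the 10 SCNT groups with more members lower than higher.

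Under combined treatment more members passed as higher than as lower. TSA with RK-701 had 17 higher and 1 lower than the latrunculin A control (background 6.39% and 3.24%, median 0.49 against -0.11). TSA with A366 had 10 and 2 (5.76% and 3.45%, median 0.35 against -0.12), and TSA with UNC0638 had 9 and 1 (5.9% and 3.07%, median 0.24 against -0.08). These backgrounds include genes with few reads, and shares over well-covered genes are not given for the co-treatments. With the gene length trend removed, TSA with UNC0638 had 3 higher and 6 lower with a median of 0.00, without a share over all genes for that setting. The members are short, with a median length of 1233 bases against 2468.5 over all genes tested. Over autosomal protein-coding genes averaging at least 50 reads the median was 3702.5. Fitting only the compared libraries left 6, 3 and 0 members in the 3 comparisons. The 3 comparisons share the same control, and without its second library 7, 5 and 2 members passed. Summed oocyte markers were 934.5 to 1096, 1157 to 1274 and 1093 to 1354 TPM in the co-treatments in that order, all below the 1818 to 1953 of the control. Two-cell markers were 1310 to 1474 TPM with TSA and UNC0638, 499 to 500 with TSA and RK-701 and 434 to 467 with TSA and A366, against 412 to 644 in the control, and the part of these lists in the result was not tested.

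Ndufaf7 read 125 and 87.3 in the control, 231 and 232 with TSA and RK-701, 224 and 220 with A366 and 243 and 209 with UNC0638. All treated libraries lay above the control, with log2 fold changes of 1.13 ± 0.21, 1.06 ± 0.20 and 1.09 ± 0.21 (edgeR adjusted p = 0.000846, 0.00151 and 0.00109). Ndufs1, an iron-sulphur core subunit of complex I, read 23.3 and 19.1 in the control and 37.0 to 51.2 in the co-treated libraries, with changes of 1.21, 0.95 and 1.02. Sdhd rose by 1.40, 1.36 and 0.99.

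Cycs, cytochrome c, read 218 and 145 in the control and 328 and 380 with TSA and RK-701, a log2 fold change of 0.97 ± 0.20 (edgeR adjusted p = 0.00247). With A366 it read 282 and 250, and with UNC0638 278 and 215, and neither passed. Ndufv2 (1.07) and Cox6b1 (0.89) also rose with TSA and RK-701. Cox7c (1.08) rose with A366, and Atp5f1 (0.66) and Cox6b2 (0.98) with UNC0638.

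Ndufs6, which was lower with both mRNAs, also fell in the co-treatments, by 1.52, 1.75 and 1.26 on the log2 scale. It read 7.79 and 9.90 with RK-701, 5.79 and 9.33 with A366 and 9.17 and 12.0 with UNC0638, all below 21.6 in the lower control library. Atp5e fell by 0.88 with TSA and A366. Cox7b2, at 0 reads in the control, had 6 and 58 reads with TSA and RK-701, 36 and 15 with A366 and 10 and 11 with UNC0638, at least 22.8-fold, 17.2-fold and 7.74-fold higher. The first of these bounds rests mainly on the library with 58 reads. With TSA alone it had 8 and 10 reads, at least 6.5-fold higher than the same floor.

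**Figure D3:**
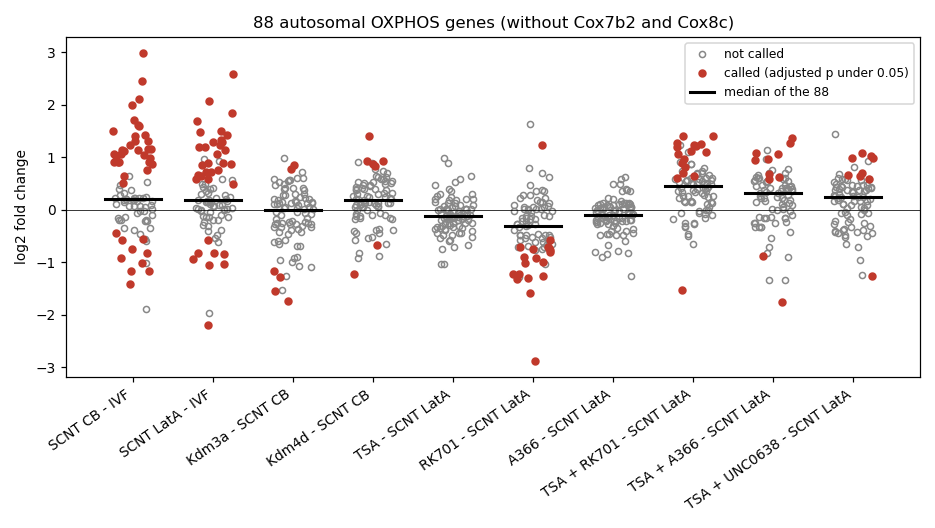
Log2 fold changes of 88 autosomal members in the 10 comparisons with a control, with a point for each gene, filled where the adjusted p was under 0.05, and a line at the median. Cox7b2 and Cox8c, at 0 reads in whole groups, are left out, and the median lies below 0 for RK-701 alone and above 0 for the 3 co-treatments.

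Against IVF, TSA with RK-701 had 54 members higher and 4 lower (background 10.4% and 8.06%), TSA with A366 39 and 5 (9.13% and 7.22%), and TSA with UNC0638 33 and 2 (8.82% and 6.14%). Atp5k stayed above IVF by 2.13, 2.06 and 2.32, and Sdhb by 2.37, 2.21 and 1.48.

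The 3 G9a inhibitors were compared at the same dose and time in 4 pairs, and genes were adjusted within each pair. A366 alone differed from RK-701 alone, with 22 members higher and 2 lower (background 6.83% and 6.09%). Nearly all of these calls were lost with only the compared libraries in the fit, or without a filter on low counts. Summed oocyte markers were 1746 to 1999 TPM with A366 and 2367 to 2992 with RK-701, and their part in the result was not tested. Uqcrfs1, the Rieske iron-sulphur protein, was 1.86 higher (95% interval 1.32 to 2.40), Atp5k 1.07 higher (0.72 to 1.42) and Cox5a 2.80 higher (1.69 to 3.90) with A366. Cox6b2 was lower by 1.09 (interval -1.54 to -0.64) and Sdha by 0.80 (-1.34 to -0.27).

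With TSA the differences were smaller. TSA with A366 and TSA with RK-701 differed in 0 of 90 members (edgeR, 7 unadjusted, 0 by DESeq2, background 0% and 0%). The 95% interval for Atp5k was -0.46 to 0.31, while that for Cox5a was -3.13 to -0.75, so a miss of the threshold does not show that the compounds act alike. TSA with UNC0638 had 1 member higher and 3 lower than TSA with RK-701 (background 0.779% and 0.43%). Cox6b2 was 1.05 higher (0.57 to 1.54), and Cox7c (-1.18), Cox7a2l (-1.08) and Ndufv2 (-0.90) were lower. UNC0638 and A366 with TSA differed in 0 members (9 unadjusted, 2 by DESeq2, background 0.822% and 0.194%). These calls fell to 0 to 2 when any library of the UNC0638 and RK-701 pair was left out.

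Whether TSA changed the response to RK-701 was tested as an interaction. Of 90 members, 24 were higher and 1 lower in the interaction (background 1.54% and 0.764%), with a median of 0.87 against -0.02 over all genes. Complex I accessory subunits gave 7 of 28, complex V 5 of 17, complex III 4 of 9, complex IV 4 of 16 with 1 lower, and the assembly factors 3 of 8. Cytochrome c passed too. None of the core subunits or of complex II did.

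Atp5j is an example. It read 107 and 76.2 in the control, 71.7 and 83.7 with TSA, 41.6, 55.8 and 50.2 with RK-701 and 134 and 152 with both. The RK-701 libraries were the lowest and the co-treated ones the highest, without overlap, and the interaction was 1.78 ± 0.27 on the log2 scale (edgeR adjusted p = 0.00207). Cycs gave 1.38 ± 0.27 (adjusted p = 0.00863). Cox5a gave 3.68 ± 0.78 (adjusted p = 0.0131), with co-treated libraries at 13 and 36.7. Cox6b2 was the member of the opposite sign, at -1.33 ± 0.32 (adjusted p = 0.0257), since it read 80.2 and 70.3 with both drugs and 179 to 194 with RK-701.

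The count of the interaction depended on single libraries. It was 1 without the second library of TSA with RK-701, 3 without the first TSA library, 14 without the third RK-701 library, and 16 without the first latrunculin A, the second TSA or the first RK-701 library. It was 8 with only the compared libraries. For A366 the interaction called 2 members, Ndufaf1 (1.94 ± 0.49) and Ndufaf5 (1.36 ± 0.34), against 1.31% higher and 0.57% lower of all genes, and 0 without either library of TSA with A366, either A366 library, the first TSA or the first latrunculin A library. It was 16 without the second latrunculin A library and 5 without the second TSA library.

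**Figure D4:**
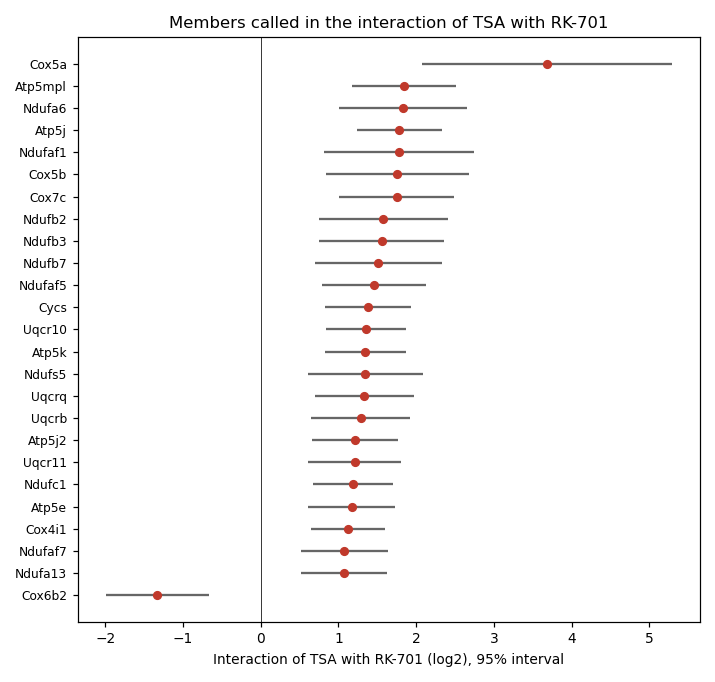
Interaction of TSA with RK-701 on the log2 scale for the 25 members with an adjusted p under 0.05, with 95% intervals. Cox5a has the largest estimate (3.68) and Cox6b2 alone lies below 0 (-1.33).

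Isoforms of one subunit were also followed side by side through the 10 comparisons with a control. Cox4i1 rose by 0.51 and 0.49 on the log2 scale in the cytochalasin B and latrunculin A controls against IVF and fell by 0.70 with RK-701, while Cox4i2 passed in 1 comparison, with Kdm3a. Cox6b1 passed with TSA and RK-701 (0.89) and with TSA and A366 (0.69). Its isoform Cox6b2 passed in both controls (-1.17 and -1.05), with Kdm4d (0.94), with RK-701 (1.23) and with TSA and UNC0638 (0.98). No comparison called both isoforms.

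Cox7a1 rose by 1.24 ± 0.38 (SE) in the cytochalasin B control (edgeR adjusted p = 0.0207), where Cox7a2 fell by 0.45. With TSA and RK-701, Cox7a2 rose by 0.61 and Cox7a2l, which takes part in joining complexes III and IV, by 1.10. Cox6a1 passed with RK-701 and Cox8a in the cytochalasin B control. Cox8a read 76 and 104 with Kdm3a against 167 and 182 in its control, which did not pass (-0.96).

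Cox6a2, Atp5g1, Atp5g2, Atp5g3, Cyc1 (cytochrome c1 of complex III), Sdha and Sdhc passed in none of the 10 comparisons. Sdha differed by 0.80 and Cyc1 by -0.71 with RK-701, short of the threshold. Sdhb passed against IVF and in no treated group against its control, where its log2 differences ran from -0.44 to 0.52. Sdhd passed against IVF and in the 3 co-treatments. It read 44.4 and 25.3 in the latrunculin A control, 91 and 94.1 with TSA and RK-701, 85.2 and 95.2 with A366 and 84.4 and 55 with UNC0638, so every co-treated library lay above the control.

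The X-linked members were fitted with the sex chromosomes included. Ndufb11, an accessory subunit of complex I, read 58.6 to 69.6 in IVF, 30.6 and 35.5 in the cytochalasin B control and 41.1 and 43.9 in the latrunculin A control, with log2 fold changes of -0.93 ± 0.20 and -0.56 ± 0.19 (edgeR adjusted p = 0.00113 and 0.037). It rose by 0.85 with Kdm4d. Cox7b was higher than IVF by 0.86 ± 0.17 in the cytochalasin B control (edgeR adjusted p = 0.000661), and Ndufa1 passed in no comparison. Since IVF embryos are of both sexes and SCNT embryos are female, sex and nuclear transfer cannot be told apart in the X-linked differences against IVF.

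Other genes of the pathway were counted beside the members. The 13 mRNAs of the mitochondrial genome had 7 higher in the cytochalasin B control and 1 higher and 1 lower in the latrunculin A control against IVF. They had 7 lower with Kdm4d, 2 lower with RK-701, and 3, 5 and 1 lower under co-treatment with RK-701, A366 and UNC0638 in that order. They were fitted apart from the nuclear genes. Over all autosomal genes, 10.8% were higher in the cytochalasin B control, and 11.5% higher and 10% lower in the latrunculin A control. Lower were 1.27% with Kdm4d, 2.8% with RK-701, and 3.24%, 3.45% and 3.07% under the co-treatments in the same order. Of 77 mitochondrial ribosome genes, 26, 15 and 9 rose and 0, 1 and 2 fell in these co-treatments, and 9 fell with RK-701 alone. Of all autosomal genes, 6.39%, 5.76% and 5.9% rose in the co-treatments.

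Assembly factors outside the rule had 11 of 35 higher and 2 lower in the cytochalasin B control against IVF, and 9 and 1 in the latrunculin A control. Citric acid cycle genes had 2 higher and 2 lower, then 1 and 3, of 14. Glycolysis genes had 2 and 2, then 2 and 1, of 15, and regulators of mitochondrial gene expression 3 and 2, then 2 and 3, of 12. With RK-701, 3 citric acid cycle and 3 glycolysis genes were higher and 2 regulators were lower. Over all autosomal genes, 10.8% were higher and 10.5% lower in the cytochalasin B control and 11.5% and 10% in the latrunculin A control. With RK-701 the shares were 2.68% and 2.8%. These short lists were not tested against the shares.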

How the data were processed

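Libraries were RNA-seq of embryo pools. The authors used Trimmomatic for trimming and STAR for unique alignment to the mm10 genome. Read pairs were then counted by featureCounts 1.6.2 without strand on genes and repeat copies, leaving out pairs over more than 1 feature. The deposited values are raw counts. Antisense or overlapping genes cannot be separated by strand, and 31 members share exon bases with another gene.

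Counts were fitted here with edgeR 4.0.16 (limma 3.58.1, R 4.3.3), with TMM factors, 1 mean per group and all 25 libraries, on 25794 autosomal genes averaging at least 1 read. A gene was called at a Benjamini-Hochberg adjusted p under 0.05. DESeq2 1.42.0 was an alternative. Counts of 3 reads set the floor, which covers counting error only. TPM used counts and gene lengths. In simulated data for the latrunculin A control against IVF (25794 genes), 8 of 100 genes changed by 0.7 on the log2 scale and 69 of 100 changed by 1.5 were called, with 4 other calls.

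Genes named with values were up to 5 called members per direction with the smallest adjusted p in the 10 comparisons with a control, the isoform sets, complex II, Cycs, Cyc1 and X-linked members. Examples outside it were named after their values were seen. Members and lists were chosen with earlier results of these data known. Labels do not say that same-numbered libraries are paired; p-values measure the spread between pools. A member is not reported here by name.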

Additional observations from a re-analysis of the deposited data

Results flagged for a closer look

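Among the 4 IVF libraries, 5 members had a library far from the rest by Dixon's criterion, which chance meets in about 1 in 20 groups. Over as many genes as the members, chance alone would give a similar number. The lowest library read 10.5 normalised counts for Ndufs4 (others 13.8 to 14.4), 13.8 for Sdhd (20.0 to 21.1), 156 for Cox8a (350 to 369) and 109.0 for Atp5h (121 to 123). The highest read 242 for Atp5f1 (others 219.1 to 222.5).

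The response to RK-701 differed with and without TSA for 25 members in the interaction test of edgeR. The background over all genes was 1.54% higher and 0.764% lower, and the count depended on single libraries, as given above. On the log2 scale it was 1.78 for Atp5j, 1.84 for Atp5mpl, 1.35 for Atp5k, 1.22 for Atp5j2 and 1.17 for Atp5e in complex V. In complex III it was 1.35 for Uqcr10, 1.33 for Uqcrq, 1.28 for Uqcrb and 1.21 for Uqcr11. In complex IV it was 1.75 for Cox7c, 1.12 for Cox4i1, 3.68 for Cox5a, 1.75 for Cox5b and -1.33 for Cox6b2, and for Cycs it was 1.38. Accessory subunits of complex I gave 1.19 for Ndufc1, 1.83 for Ndufa6, 1.07 for Ndufa13, 1.55 for Ndufb3, 1.58 for Ndufb2, 1.51 for Ndufb7 and 1.35 for Ndufs5. Assembly factors gave 1.46 for Ndufaf5, 1.08 for Ndufaf7 and 1.78 for Ndufaf1. With A366 the interaction was 1.36 for Ndufaf5 and 1.94 for Ndufaf1, the only members called, against a background of 1.31% higher and 0.57% lower.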

How the results depend on the processing

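Counts below are members called of 90, by edgeR unless DESeq2 is named. Shares over all genes are not given for the alternative settings, here or above. Whether a setting called more or fewer genes everywhere is therefore not shown. The cause of each shift was not tested. Over 375 alternative counts, 286 stayed within 1.5 times of the reported one. Of 876 alternative log2 values of named members, 113 were weaker and none changed sign. The named members were picked by adjusted p in these data, so a kept sign is no support. Of 58 named calls, 20 were lost with only the compared libraries. Counted for each setting apart, 4 each were lost with the length trend removed, the GC trend removed or a replicate block, and 1 with RLE size factors. The same call can be lost in several settings. DESeq2 called 11 with Kdm3a, 11 with Kdm4d, 4 with TSA, 32 with RK-701, 21 with TSA and A366, 8 between UNC0638 and RK-701 under TSA, 2 between UNC0638 and A366 under TSA, and 41 and 11 in the interactions with RK-701 and A366. With the other control as reference, 14 passed with Kdm3a, 6 with TSA and 3 with A366, and with the mean of both controls 16 with Kdm3a, 17 with Kdm4d, 5 with TSA, 1 with A366 and 33 with TSA and RK-701. With only the compared libraries, 3 passed with RK-701, 6, 3 and 0 under TSA with RK-701, A366 and UNC0638, 1 between A366 and RK-701 and 3 between UNC0638 and A366 under TSA, and 8 and 0 in the interactions. Without a filter on low counts, 1 passed with TSA, 1 between A366 and RK-701 and 2 between UNC0638 and A366 under TSA, 2 between the SCNT controls and 4 in the A366 interaction. RLE size factors gave 1 with TSA. Removing the length trend gave 11 with Kdm3a, 1 between UNC0638 and A366 under TSA and 1 in the A366 interaction, and removing the GC trend gave 1 in the latter. Of 47 same-numbered pairs 12 correlated above 0.1, so the numbers were not taken as pairs. With a replicate block, 6 passed with TSA and UNC0638, 2 between UNC0638 and RK-701 under TSA, and 14 and 0 in the interactions with RK-701 and A366.

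Leaving out 1 library at a time gave 31 to 39 against IVF for cytochalasin B, 27 to 35 for latrunculin A, 27 to 45 for Kdm3a, 23 to 39 for Kdm4d, 19 to 31 for TSA, 33 to 41 for RK-701, 20 to 33 for A366, and 38 to 57, 23 to 40 and 22 to 35 for TSA with RK-701, A366 and UNC0638. Against the controls it gave 3 to 6 for Kdm3a, 0 to 8 for Kdm4d, 0 to 7 for TSA, 9 to 20 for RK-701, 0 to 2 for A366, and 7 to 30, 3 to 20 and 2 to 18 for the co-treatments in that order. It gave 14 to 19 between A366 and RK-701, 0 to 2 between UNC0638 and RK-701 under TSA, 0 to 0 for both other pairs under TSA, 0 to 1 between the SCNT controls, and 1 to 34 and 0 to 16 in the interactions. The highest counts of the co-treatments (30, 20 and 18) came without the first latrunculin A library. Those of TSA with A366 were 3 and 7 without its first and second library, those of TSA with UNC0638 2 and 5, and that of TSA with RK-701 was 7 without its second. The lowest IVF comparisons came without the second library of Kdm3a, Kdm4d, A366 and TSA with RK-701 and without the first of TSA, TSA with A366 and TSA with UNC0638. TSA and TSA with A366 gave 20 and 27 without their second. A366 against RK-701 gave 14 without either A366 library and 15 without the first RK-701 library. A lone remaining library was assumed to vary like the other groups. Groups of 2 limit what can be called.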
